A study of Mus musculus with 29 samples.

Results

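The unbound RNA of the Aldh1l1-NuTRAP and Cx3cr1-NuTRAP lines is the RNA left in a mouse brain homogenate after tagged ribosomes were pulled out of it, in 1 line those of astrocytes and in the other those of microglia. The negative (unbound) libraries of Aldh1l1-NuTRAP mice 290, 293 and 294 and of Cx3cr1-NuTRAP mice 155, 192, 194, 209, 210 and 277 were chosen by their labels, which gave 9 of the 29 libraries of the series. The question was whether astrocyte genes were low in the unbound RNA of the Aldh1l1 line, whether microglial genes were low in that of the Cx3cr1 line, and which other genes differed between them. Mice of the Aldh1l1 line (Aldh1l1-Cre/Ert2+; NuTRAP+) and of the Cx3cr1 line (Cx3cr1-Cre/Ert2+; NuTRAP+) both carried the NuTRAP reporter and a tamoxifen-dependent Cre. Cre was switched on by 5 daily doses of tamoxifen (100 mg/kg) when the mice were about 3 months old. Each library comes from the hemisected brain of 1 mouse. The Aldh1l1 driver is a transgene, while the Cx3cr1 driver is a knock-in, so every mouse of the latter line carried Cre in 1 copy of Cx3cr1. The lines share no mouse. The study used males and females without giving the sex of each mouse in the labels, and in its cytometry and imaging experiments it took brains later after tamoxifen in the Cx3cr1 line than in the Aldh1l1 line. The line, the interval after tamoxifen and the animals cannot be told apart here.

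In translating ribosome affinity purification (TRAP), a cell type expresses the ribosomal protein L10a fused to EGFP, and an antibody against GFP collects its ribosomes with the mRNA that they are translating. Astrocytes take up glutamate and potassium, carry water channels at their endfeet on blood vessels and make lipoproteins for other cells. Microglia are the resident macrophages of the brain, known for complement C1q, for lysosomal enzymes and for surface receptors such as the fractalkine receptor Cx3cr1.

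Levels are given as CPM, the counts of a gene for every 1000000 counts of its library after TMM scaling. The labels were first checked in the ribosome-bound RNA of the same mice. Gfap, the intermediate filament of astrocytes, was at 2700 ± 108 CPM (SD, n = 3) in bound RNA of the Aldh1l1 line and at 188 ± 24.5 CPM (n = 6) in that of the Cx3cr1 line. C1qa, a chain of complement C1q, was at 7.25 ± 4.59 and 580 ± 195 CPM. Both markers were on the side that the labels give. In the unbound RNA, total counts were 8782235 in mouse 290, 25137834 in mouse 293 and 21017054 in mouse 294, and ranged from 18297512 to 24999098 in the 6 Cx3cr1 libraries.

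2 libraries stood apart from the other 7 before any gene was compared. In a principal component analysis of log2 CPM, mouse 290 scored 53.6 and mouse 155 scored 32.7 on component 1, which held 53.5% of the variance, against -17.4 to -6.2 in the other 7. Component 2, with 15.9% of the variance, held the 3 Aldh1l1 libraries at 12.0 to 21.4 and the 6 Cx3cr1 libraries at -18.4 to -3.5. Mice 290 and 155 belong to different lines, so component 1 did not follow the line. In both, 22 cytosolic ribosomal protein genes were high, with a list median of 0.49 in mouse 290 and 0.62 in mouse 155 on the log2 scale against -0.18 to -0.01 in the other libraries, relative to the mean of the 6 Cx3cr1 libraries. Mouse 290 is also the library with the fewest counts. Results are given over all 9 libraries and then over the 7 that remain without mice 155 and 290, a comparison that was chosen after seeing the data and that leaves 2 Aldh1l1 and 5 Cx3cr1 libraries. Both of those Aldh1l1 mice are low in the X-linked Xist and high in the Y-linked Ddx3y, while 2 of the 5 Cx3cr1 mice are the reverse, and the part of that imbalance in the results over 7 libraries was not tested.

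**Figure D1:**
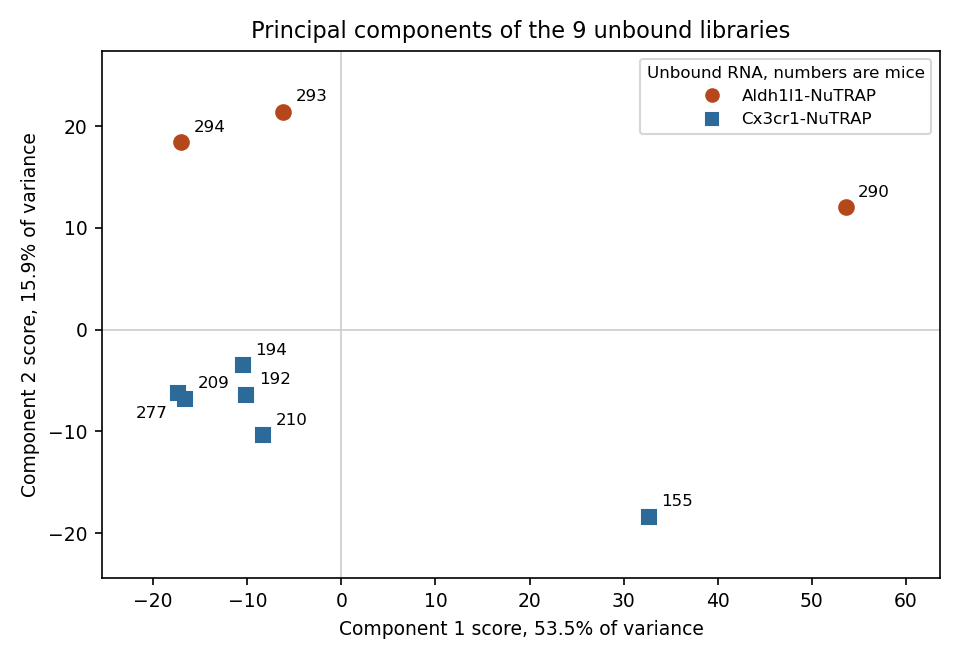
Scores of the 9 unbound libraries on principal components 1 (horizontal, 53.5% of the variance) and 2 (vertical, 15.9%) of centred log2 CPM, with circles for the Aldh1l1-NuTRAP line, squares for the Cx3cr1-NuTRAP line and the mouse number beside each point. Mice 290 and 155 lie far to the right of the other 7, and the lines separate along the vertical axis.

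Few genes differed between the lines over all 9 libraries, and those that were lower in the Aldh1l1 line included genes of astrocytes and of the choroid plexus. Of 13613 genes tested by edgeR's quasi-likelihood test with Benjamini-Hochberg adjustment, 17 (0.125%) were higher and 17 (0.125%) were lower in the unbound RNA of the Aldh1l1 line at an adjusted p under 0.05, which is 34 genes (0.25%) in all. With library totals in place of TMM scaling, 8 were higher and 20 lower. At an unadjusted p under 0.05, 867 genes (6.37%) were higher and 960 (7.05%) lower. The libraries of the lines did not overlap for 484 genes that were higher (3.56%) and 583 that were lower (4.28%). Without mice 155 and 290, 866 of 14013 genes (6.18%) were higher and 757 (5.4%) lower at an adjusted p under 0.05, and all 34 genes called over the 9 libraries were called there too.

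The number of calls moved with single mice. Leaving out mouse 155 alone gave 44 genes higher (0.32%) and 48 lower (0.349%), and leaving out mouse 290 alone gave 61 higher (0.436%) and 72 lower (0.515%). DESeq2 on all 9 libraries called 256 genes higher (1.88%) and 261 lower (1.92%), and these held all 34. In the other direction, without mouse 293 no gene was called by edgeR, with 1572 at an unadjusted p under 0.05, and without mouse 192, 194, 209, 210 or 277 between 1 and 9 genes were called. Without mouse 294 the count was 66, of which 22 were among the 34.

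Aqp4, the water channel of astrocyte endfeet, gave the smallest p of all genes. It was at 57.8 CPM in mouse 290, 63.6 CPM in mouse 293 and 74.7 CPM in mouse 294, and ranged in the Cx3cr1 libraries from 138 to 205 CPM with a median of 180 CPM. All 3 Aldh1l1 libraries were below every Cx3cr1 library. Their mean of 65.4 ± 8.62 CPM (SD, n = 3) against 177 ± 22.1 CPM (n = 6) corresponds to 36.9% of the level in the Cx3cr1 line, a log2 ratio of -1.44 (95% interval from -1.73 to -1.15, adjusted p = 0.00579, edgeR). Without mice 155 and 290 the ratio of Aqp4 was -1.42 (adjusted p = 4.86e-08), while without mouse 293 its adjusted p was 0.103. In bound RNA Aqp4 went the other way, at 509 ± 168 CPM in the Aldh1l1 line and 102 ± 18 CPM in the Cx3cr1 line, a log2 ratio of 2.33.

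The other markers of astrocyte identity were closer to equal. Gfap was at 283, 228 and 227 CPM in mice 290, 293 and 294 and at 250 to 275 CPM in the Cx3cr1 libraries, so that mouse 290 was above all of the latter and the other 2 were below them. Its log2 ratio was -0.08 (95% interval from -0.27 to 0.11, adjusted p = 0.75) over the 9 libraries and -0.20 (adjusted p = 0.0264) without mice 155 and 290. Aldh1l1, a folate enzyme and the gene whose promoter drives Cre in the astrocyte line, was at 90.9, 62.7 and 65.3 CPM against 82.6 to 92.8 CPM. Mouse 290 lay among the Cx3cr1 libraries and mice 293 and 294 below them, and the log2 ratio of Aldh1l1 was -0.25 (adjusted p = 0.384), or -0.42 (adjusted p = 0.000928) over 7 libraries. In bound RNA the log2 ratios of Gfap and Aldh1l1 between the lines were 3.84 and 3.26.

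**Figure D2:**
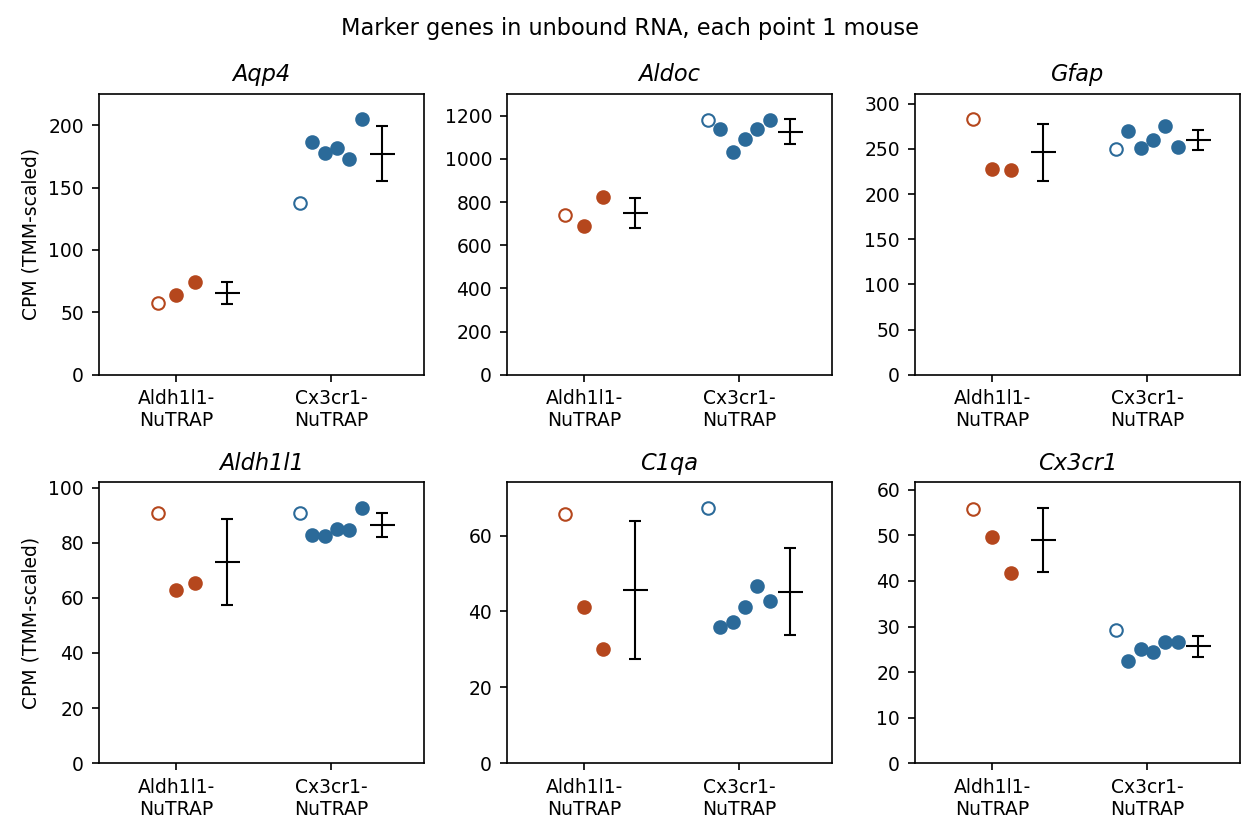
CPM of 6 marker genes in unbound RNA (vertical axis from 0), 1 point for each mouse, with open symbols for mice 290 and 155 and a bar for the mean ± SD of each line. Aqp4 and Aldoc are lower and Cx3cr1 is higher in every Aldh1l1-NuTRAP library than in any Cx3cr1-NuTRAP library, whereas Gfap, Aldh1l1 and C1qa overlap.

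The 138 astrocyte genes that the study took from sorted cells were lower in the Aldh1l1 line as a group, by a small margin. Of 137 that were tested, 0 were higher and 6 were lower at an adjusted p under 0.05, which is 4.38% of them against 0.125% of all genes. In bound RNA, 135 of them were higher in the Aldh1l1 line against 30.6% of all 13676 genes tested there, with a median log2 ratio of 3.03, and 33.1% of all genes were lower. Library totals in place of TMM gave 2875 genes higher and 6312 lower in bound RNA, against 4188 and 4530. At an unadjusted p under 0.05, 44 (32.1%) were lower and 5 (3.65%) were higher, against 7.05% and 6.37% of all genes. The median log2 ratio over the list was -0.18, and that over all genes tested was 0.01. Per mouse, the list median relative to the Cx3cr1 mean was -0.16, -0.21 and -0.24 in mice 290, 293 and 294 and between -0.03 and 0.04 in the 6 Cx3cr1 mice, so the lines did not overlap. The Aldh1l1 mean of -0.20 ± 0.04 (SD, n = 3) on the log2 scale corresponds to 86.9% of the level in the Cx3cr1 line. Of the 137 genes, 109 had a log2 ratio below 0 and 28 (20.4%) were lower in all 3 Aldh1l1 libraries than in any Cx3cr1 library, against 4.28% of all genes. Without mice 155 and 290, 57 of 138 were lower and 3 were higher (Hapln1, Trim9 and Dclk1), against 5.4% and 6.18% of all genes, with a median of -0.24. DESeq2 called 24 of the 137 lower and 0 higher, against 1.92% and 1.88% of all genes, and without mouse 293 edgeR called 0. With bulk tissue, fewer cells of a type and less RNA in each cell cannot be told apart.

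The 6 called members of the list were Aqp4, Hsd11b1, Aldoc, Acsbg1, Gpr37l1 and Gstm1. Aldoc, the brain isoform of the glycolytic enzyme aldolase, was at 740, 687 and 824 CPM in the Aldh1l1 mice and at 1030 to 1180 CPM in the Cx3cr1 mice, with no overlap (log2 ratio -0.59, adjusted p = 0.0225). Gpr37l1, a G protein-coupled receptor of astrocytes, was at 178, 176 and 197 CPM against 234 to 285 CPM (log2 ratio -0.55, adjusted p = 0.0394), again without overlap. Acsbg1 activates fatty acids as their CoA esters and was at 155, 142 and 147 CPM against 183 to 235 CPM (log2 ratio -0.56, adjusted p = 0.0394). For each of these genes the lowest Cx3cr1 library stood above the highest Aldh1l1 library. Hsd11b1, which regenerates active glucocorticoid, and Gstm1, a glutathione transferase, had log2 ratios of -0.65 and -0.50 (adjusted p = 0.0394 for both). All 6 were higher in the bound RNA of the Aldh1l1 line, by 2.33 to 3.37 on the log2 scale.

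Astrocyte genes were then read by their roles, over lists written by hand. For these lists the shares to compare with are the 0.125% of all genes called lower and 7.05% lower at an unadjusted p over 9 libraries, and the 5.4% called lower over 7. Of 12 identity genes, 2 were lower (Aqp4 and Aldoc) and 0 higher, with a median log2 ratio of -0.23, and 9 were lower without mice 155 and 290. For Sox9, a transcription factor of astrocytes, the log2 ratio was -0.25 over 9 libraries (adjusted p = 0.425) and -0.39 over 7 (adjusted p = 0.00755). Among 8 genes of water and potassium handling all had a ratio below 0, with a median of -0.32, 1 called over 9 libraries and 4 over 7. They include Slc4a4, a sodium bicarbonate cotransporter (-0.35, adjusted p = 0.344), and Kcnj10, the inward rectifier that buffers potassium (-0.27, adjusted p = 0.476). The 3 connexin genes of gap junctions had a median of -0.25 and none was called over 9 libraries, with 2 at an unadjusted p under 0.05 and 1 called over 7, Gja1 (-0.23, adjusted p = 0.00847).

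Metabolic and secreted products had medians in the same range. Of 11 genes of lipoproteins and fatty acid handling 2 were lower, Acsbg1 and the mitochondrial dehydrogenase Acadl (37.2, 38.6 and 37.0 CPM against 50.1 to 59.9 CPM, log2 ratio -0.51, adjusted p = 0.0394), and 6 were lower over 7 libraries. Apoe, the main lipoprotein of the brain, is 1 of those 6. It was at 2920 CPM in mouse 290 but at 1460 and 1220 CPM in mice 293 and 294, against 1950 to 2440 CPM in the Cx3cr1 line. Mouse 290 lay above every Cx3cr1 library and the other 2 below every one. The log2 ratio of Apoe was -0.15 (adjusted p = 0.836) over 9 libraries and -0.57 (adjusted p = 6.82e-05) over 7. Of 9 enzymes of serine, glycine and folate, 0 were called over 9 libraries, 4 were lower at an unadjusted p under 0.05 and 4 were called lower over 7. Phgdh, which starts serine synthesis, is among the latter (-0.51, adjusted p = 0.000252). Of 11 secreted factors and inhibitors, 0 were called by edgeR over 9 libraries, 3 by DESeq2, and 6 over 7 libraries. The matrix protein Sparcl1 was at 1790, 1690 and 1590 CPM against 2030 to 2190 CPM, which did not overlap, with a log2 ratio of -0.34 (adjusted p = 0.0728).

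By median log2 ratio, glutamate uptake (-0.13) and the transcription factors (-0.06) were the nearest to equal among the astrocyte groups. By share of genes lower at an unadjusted p under 0.05, glutamate uptake (50%) was not, against 7.05% of all genes. Slc1a2, the main glutamate transporter of astrocytes, was at 1260, 1870 and 1970 CPM in the Aldh1l1 mice and at 1350 to 1920 CPM in the Cx3cr1 mice. The lines overlapped and the log2 ratio of Slc1a2 was -0.02 (95% interval from -0.35 to 0.31, adjusted p = 0.969), while in bound RNA its means were 8630 and 1590 CPM. For Slc1a3, the other glial transporter, and Glul, which makes glutamine, the log2 ratios were -0.27 (adjusted p = 0.224) and -0.07 (adjusted p = 0.701). Of these 6 genes of glutamate and glutamine handling 0 were called over 9 libraries by edgeR or DESeq2, 3 were lower at an unadjusted p under 0.05 and 3 were called lower over 7 libraries. The 10 transcription factors had a median log2 ratio of -0.06, 0 called over 9 libraries with 2 higher and 1 lower at an unadjusted p under 0.05, and 0 higher and 2 lower over 7. Further markers that the study names for astrocytes were Fabp7, a fatty acid binding protein, and Elovl2, an elongase of fatty acids. Fabp7 was at 154 CPM in mouse 290, 45.8 CPM in mouse 293 and 53.6 CPM in mouse 294 against 50.9 to 110 CPM, and its log2 ratio was 0.28 (adjusted p = 0.794), which turned to -0.29 (adjusted p = 0.0691) without mice 155 and 290. Elovl2 had a log2 ratio of -0.08 (adjusted p = 0.881), or -0.27 (adjusted p = 0.17) over 7 libraries.

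A second list of 126 astrocyte genes, from ribosome tagging, was less uniform among the mice. The study required its members to be enriched over input in its own bound RNA as well as in earlier data. The list is thus not independent of this study. Of 101 that were tested, 0 were higher and 1 was lower, against 0.125% of all genes in each direction. Before adjustment, 2 (1.98%) were higher and 21 (20.8%) lower at a p under 0.05, against 6.37% and 7.05% of all genes, and the median log2 ratio was -0.23. Its median was 0.05 in mouse 290, within the range of -0.05 to 0.15 in the Cx3cr1 line, and -0.31 and -0.40 in mice 293 and 294. Over 7 libraries 26 of 105 members were lower and 0 higher, against 5.4% and 6.18% of all genes, with a median of -0.34.

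Genes were also grouped by their difference between the lines in bound RNA, which was measured in other libraries of the same mice, and unbound RNA was lower for the genes that were highest in bound RNA of the Aldh1l1 line. The 509 genes more than 5-fold higher in bound RNA of the Aldh1l1 line had a median log2 ratio of -0.20 in unbound RNA, and 79.8% of them were below 0. Of the 509, 31% were lower at an unadjusted p under 0.05 and 1.77% were higher, against 7.05% and 6.37% of all genes. For the 4897 genes not called in bound RNA the median was 0.02 with 46.4% below 0. On the other side the 2213 genes 2 to 5-fold lower in bound RNA had a median of 0.06 with 40.4% below 0, and 11.8% were higher and 6.06% lower at an unadjusted p under 0.05. At an adjusted p under 0.05, 8 of these 2213 genes were called higher and 0 lower in unbound RNA. Of the 509 genes, 0 were called higher and 9 lower, against 0.125% of all genes in each direction. The 260 genes more than 5-fold lower in bound RNA of the Aldh1l1 line had a median of 0.04 with 43.5% below 0. At an unadjusted p under 0.05, 8.85% of these were higher and 8.08% lower in unbound RNA.

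**Figure D3:**
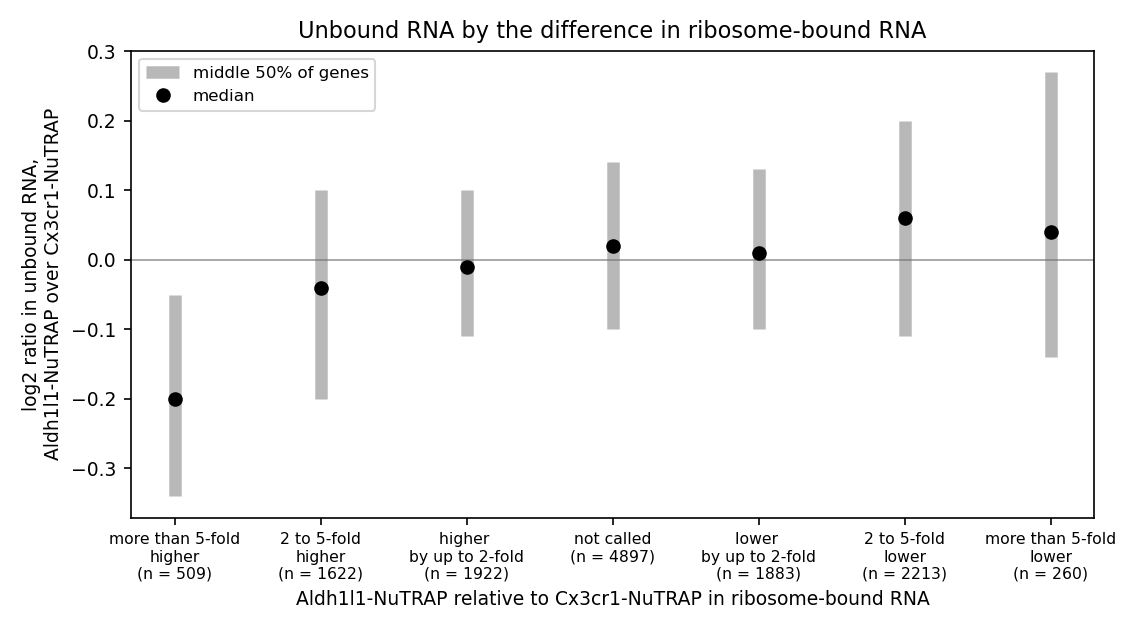
Log2 ratio of the Aldh1l1-NuTRAP to the Cx3cr1-NuTRAP line in unbound RNA (vertical) for genes grouped by their difference in ribosome-bound RNA of the same mice (horizontal, number of genes in parentheses), with points for the median and grey bars for the middle 50% of genes. The median is -0.20 in the group at the far left and lies between -0.04 and 0.06 in the other 6 groups.

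Within the 137 astrocyte genes the unbound ratio had a Spearman correlation of -0.28 with the bound ratio, 0.22 with gene length and -0.00 with the mean level. These are correlations across genes of the same libraries, given as a description. The 69 genes with the larger bound ratio had a median of -0.23 in unbound RNA and the other 68 a median of -0.13. For the 225 microglial genes the correlation with the bound ratio was -0.11.

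Few microglial genes differed between the lines. Of the 239 genes that the study took from sorted microglia, 225 were tested, 1 was higher in the Aldh1l1 line and 0 were lower at an adjusted p under 0.05, against 0.125% of all genes in each direction. At an unadjusted p under 0.05, 21 (9.33%) were higher and 14 (6.22%) were lower, near the 6.37% and 7.05% of all genes, and the median log2 ratio was 0.07 with 82 of the 225 below 0. The libraries did not overlap for 10 genes that were higher (4.44%) and 7 that were lower (3.11%), against 3.56% and 4.28% of all genes. Per mouse, the list median was 0.22 in mouse 290, 0.02 in mouse 293 and -0.06 in mouse 294, against -0.02 to 0.06 in the Cx3cr1 line, so mouse 293 lay within that range, mouse 294 just below it and mouse 290 well above it. In bound RNA, 216 of 238 were lower in the Aldh1l1 line, against 33.1% of all genes, with a median log2 ratio of -3.64. DESeq2 called 4 members higher and 4 lower in unbound RNA, near the 1.88% and 1.92% of all genes. Without mice 155 and 290, 6 of 232 were higher and 13 lower, with a median of -0.01, where 6.18% and 5.4% of all genes were called. A list of 142 microglial genes from ribosome tagging was also drawn in part from the study's own bound RNA. It gave 1 higher and 0 lower of 115 tested. At an unadjusted p under 0.05, 14 (12.2%) were higher and 3 (2.61%) lower, and the median was 0.07. Its median was 0.29, 0.06 and -0.10 in mice 290, 293 and 294, and without mouse 290 the median log2 ratio was -0.05, with 6 higher and 8 lower unadjusted. Over 7 libraries 1 of 123 was higher and 3 were lower, with a median of -0.03, where 6.18% and 5.4% of all genes were called.

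C1qa was at 65.6, 41.3 and 30.0 CPM in mice 290, 293 and 294 and at 36.0 to 67.4 CPM in the Cx3cr1 line, where mouse 155 was the highest. The lines overlapped. Its log2 ratio was 0.00 (95% interval from -0.55 to 0.56, adjusted p = 0.999), and -0.19 (adjusted p = 0.39) without mice 155 and 290. The genes for the other chains of C1q, C1qb and C1qc, had log2 ratios of 0.00 (95% interval from -0.28 to 0.28) and 0.02 (from -0.27 to 0.31). Among 14 genes of homeostatic microglia 1 was higher and 0 lower, against 0.125% of all genes in each direction. At an unadjusted p under 0.05, 4 (28.6%) were higher and 0 lower, against 6.37% and 7.05% of all genes. The median log2 ratio of the 14 was 0.02, and list medians were 0.29, -0.05 and -0.21 in mice 290, 293 and 294. P2ry12, the ADP receptor by which microglia sense injury, was at 23.9, 20.9 and 17.0 CPM against 18.8 to 21.9 CPM (log2 ratio -0.05, 95% interval from -0.30 to 0.20, adjusted p = 0.89). Tmem119, a membrane protein that marks resident microglia, was at 25.9, 24.6 and 15.3 CPM against 17.9 to 22.7 CPM (log2 ratio 0.04, adjusted p = 0.94). Csf1r, the receptor for the growth factor on which microglia depend, was at 83.2, 82.5 and 84.1 CPM against 64.4 to 75.3 CPM. Its libraries did not overlap, and the log2 ratio of Csf1r was 0.21 (95% interval from 0.05 to 0.37, adjusted p = 0.239).

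The called member was Cx3cr1, the driver gene itself. It was at 55.8, 49.7 and 41.8 CPM in the Aldh1l1 mice and ranged from 22.4 to 29.2 CPM, with a median of 25.8 CPM, in the Cx3cr1 mice. All 3 Aldh1l1 libraries were above every Cx3cr1 library. The level was 1.91-fold higher, a log2 ratio of 0.93 (95% interval from 0.69 to 1.17, adjusted p = 0.0172), and 0.88 (adjusted p = 3.4e-05) without mice 155 and 290. In bound RNA Cx3cr1 had a log2 ratio of -4.88. Mice of the Cx3cr1 line have Cre in 1 copy of this gene, and the part of that copy and of the pulldown in the unbound level cannot be told apart in this comparison.

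Other microglial groups had no called member over 9 libraries. At an unadjusted p under 0.05, where 6.37% of all genes were higher and 7.05% lower, the 6 tested genes of C1q and its receptors held 1 higher and 1 lower, the 13 surface receptors 1 lower, the 8 transcription factors 1 higher and the 10 lysosomal enzymes 2 lower. DESeq2 called 0 in each of these groups. Among the surface receptors, Trem2, which senses lipids, was at 27.8, 9.78 and 7.51 CPM against 9.29 to 14 CPM (log2 ratio 0.24, adjusted p = 0.812). Mouse 290 was above every Cx3cr1 library here too. Without mice 155 and 290, 7 of the 10 lysosomal enzymes were lower in the Aldh1l1 line and 0 higher, against 5.4% and 6.18% of all genes, with a median of -0.27, and Ctsz, a cathepsin, had a log2 ratio of -0.71 (adjusted p = 0.000272). Aif1, the microglial protein known as Iba1, was at 14.2 CPM in mouse 290 and at 4.19 and 4.21 CPM in mice 293 and 294 against 4.41 to 7.91 CPM. Gpr84, a receptor for medium-chain fatty acids, stayed at or below 1.81 CPM in all 9 libraries and was not tested.

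The homogenate before the pulldown (input) was sequenced for the same 6 mice of the Cx3cr1 line, so the unbound RNA of that line could be set against its own starting material. Microglial genes were nearly level between them. Over 13748 genes tested without regard to the mouse, 194 (1.41%) were higher and 646 (4.7%) lower in unbound RNA, and 2003 (14.6%) and 2373 (17.3%) at an unadjusted p under 0.05. With the mouse as a block, which pairs the unbound and input libraries of an animal, 2431 (17.7%) were higher and 2684 (19.5%) lower. Mouse 155 weighed on the count without the block, which was 1774 higher and 2041 lower when it was left out and 0 to 3 in either direction when any of the other 5 was. Of 230 tested genes of the sorted microglia list, 1 was higher and 4 were lower without the block and 17 were higher and 23 lower with it, which is below the share of all genes in either direction. The median log2 ratio of unbound to input was -0.02 over this list, from -0.03 to 0.01 in single mice, and 0.01 over all genes. C1qa had a log2 ratio of 0.14 (adjusted p = 0.458), Cx3cr1 one of -0.07 (adjusted p = 0.485) and Csf1r one of -0.22 (adjusted p = 0.0294, and 0.00144 with the block). Besides Csf1r, the members called lower without the block were Abca9, Kctd12 and Tlr7, and Coro1a was higher. The sorted astrocyte list, whose cells are not the target of the pulldown in this line, had the same median of -0.02, with 4 higher and 10 lower of 138 without the block and 19 and 42 with it. The lower calls on the astrocyte list exceeded the share of all genes in both fits (4.7% and 19.5%). The 22 ribosomal protein genes had a median of 0.29, with 0 called without the block and 21 higher with it.

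**Figure D4:**
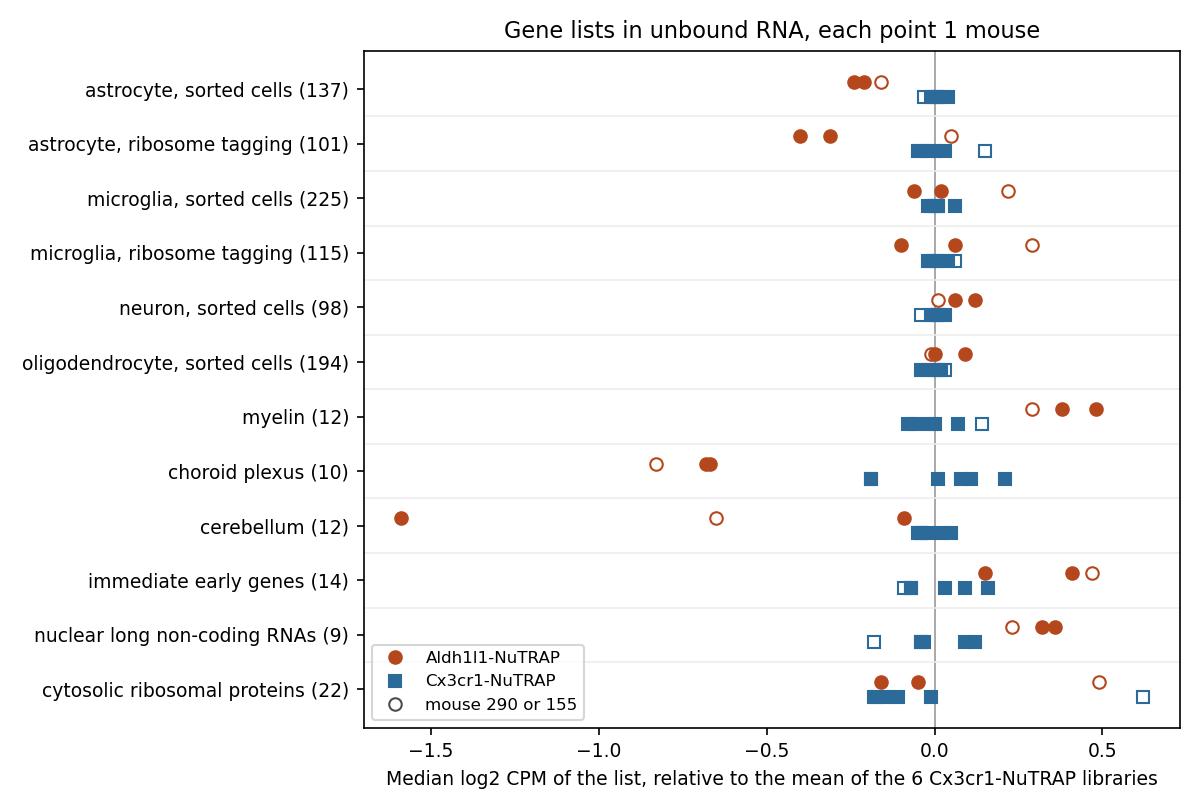
Median over each gene list of log2 CPM in unbound RNA, relative to the mean of the 6 Cx3cr1-NuTRAP libraries (horizontal), with 1 symbol for each mouse, circles for Aldh1l1-NuTRAP, squares for Cx3cr1-NuTRAP, open symbols for mice 290 and 155 and the number of genes tested in parentheses. The sorted astrocyte list and the choroid plexus list lie left of every Cx3cr1 library in all 3 Aldh1l1 mice, and the myelin and long non-coding RNA lists lie right of them.

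Neuronal and oligodendrocyte genes of the study's lists had medians near 0. Of 98 neuronal genes 0 were called by edgeR and 9 by DESeq2, all higher, against 1.88% of all genes. Before adjustment, 16 (16.3%) were higher and 1 (1.02%) lower at a p under 0.05, against 6.37% and 7.05% of all genes, and the median log2 ratio was 0.09. Over 7 libraries, 22 of 99 were higher and 2 lower, against 6.18% and 5.4%. The neuronal markers Syt4 and Eno2 had log2 ratios of 0.06 (adjusted p = 0.846) and 0.12 (adjusted p = 0.456). Of 194 oligodendrocyte genes 2 were higher and 1 lower, against 0.125% of all genes in each direction, with 29 (14.9%) higher and 23 (11.9%) lower at an unadjusted p under 0.05 and a median of 0.04. Over 7 libraries 29 of the oligodendrocyte genes were higher and 21 lower.

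Of 12 genes on the hand-written myelin list 2 were called higher in the unbound RNA of the Aldh1l1 line and 0 lower, against 0.125% of all genes in each direction. Before adjustment, 9 were higher at a p under 0.05 against 6.37% of all genes, and the median log2 ratio was 0.44. List medians were 0.29, 0.48 and 0.38 in the Aldh1l1 mice and between -0.08 and 0.14 in the Cx3cr1 mice. Cldn11, the claudin of myelin tight junctions, was at 268, 300 and 282 CPM against 171 to 199 CPM (log2 ratio 0.62, adjusted p = 0.0172). Its libraries did not overlap between the lines. Mog, a surface protein of myelin, was at 160, 120 and 105 CPM against 70.2 to 110 CPM (log2 ratio 0.64, adjusted p = 0.132), with mouse 155 the highest of the Cx3cr1 line, and without mice 155 and 290 it was called (0.56, adjusted p = 0.000318), as were 7 of the 12, against 6.18% of all genes. Mbp, the basic protein of myelin, was at 2180, 3410 and 2380 CPM against 1950 to 2180 CPM (log2 ratio 0.36, adjusted p = 0.238). In bound RNA 11 of the 12 were lower in the Aldh1l1 line, against 33.1% of all genes, with a median of -1.50. Of 10 genes of oligodendrocyte precursors 0 were called over 9 libraries, with 3 higher at an unadjusted p under 0.05 and 3 called higher over 7.

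Of 10 genes of the choroid plexus, the epithelium that makes cerebrospinal fluid, 1 (Ttr) was called lower in the Aldh1l1 line by edgeR, against 0.125% of all genes, and the median log2 ratio was -0.69. All 10 had a ratio below 0 at an unadjusted p under 0.05 (7.05% of all genes), 5 were called lower by DESeq2 (1.92%) and 7 without mice 155 and 290 (5.4%). List medians were -0.83, -0.67 and -0.68 in the Aldh1l1 mice and between -0.19 and 0.21 in the Cx3cr1 mice. Ttr, the thyroxine carrier transthyretin, was at 559, 586 and 444 CPM against 850 to 1370 CPM, without overlap, which is 50.1% of the Cx3cr1 level (log2 ratio -1.0, 95% interval from -1.32 to -0.67, adjusted p = 0.0372). Slc4a5, a bicarbonate transporter, was at 2.39, 2.59 and 2.53 CPM against 3.57 to 8.59 CPM and Kcne2, a potassium channel subunit, at 2.51, 3.31 and 3.68 CPM against 5.46 to 8.11 CPM. Their log2 ratios were -1.38 (adjusted p = 0.0728) and -1.0 (adjusted p = 0.0836). Summed over the list, 515 to 668 CPM in the Aldh1l1 mice compare with 950 to 1460 CPM in the Cx3cr1 mice. In bound RNA all 10 were higher in the Aldh1l1 line, against 30.6% of all genes, with a median of 2.14. How much choroid plexus each hemisected brain held was not measured, so the amount of tissue and its RNA in the unbound fraction cannot be told apart.

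Of 10 genes of meninges and fibroblasts 1 was lower, against 0.125% of all genes, the GABA transporter Slc6a13 (7.52, 8.78 and 8.65 CPM against 13.3 to 15.6 CPM, log2 ratio -0.81, adjusted p = 0.0172), and the list median was -0.34. Of 14 endothelial genes, 10 of pericytes and smooth muscle, 7 of ependymal cells, 5 of erythrocytes and 5 of border-associated macrophages, 0 were called by edgeR, with 1, 3, 1, 1 and 0 at an unadjusted p under 0.05 (6.37% of all genes higher and 7.05% lower) and 0, 1, 0, 1 and 0 called by DESeq2 (1.88% and 1.92%).

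Cerebellar genes were unevenly low in the Aldh1l1 mice. The median of 12 genes was -0.65, -1.59 and -0.09 in mice 290, 293 and 294 and between -0.05 and 0.05 in the Cx3cr1 mice, and their summed level was 738 to 1900 CPM against 1880 to 2140 CPM. Car8, a protein of Purkinje cells, was at 200, 110 and 323 CPM against 342 to 363 CPM. All 3 Aldh1l1 mice lay below the Cx3cr1 line, with mouse 293 the lowest and mouse 294 the nearest to it. No cerebellar gene was called by edgeR or DESeq2, with 8 lower at an unadjusted p under 0.05 (66.7%, against 7.05% of all genes). At that threshold 4 of 9 genes of the cerebral cortex (44.4%) and 2 of 10 of the striatum (20%) were higher and 0 lower, against 6.37% of all genes higher. Of 9 hippocampal genes 2 were higher and 1 lower, and of 10 thalamic genes 1 was in each direction. The part of these regional differences in the astrocyte and other results was not tested.

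Immediate early genes, nuclear long non-coding RNAs and glucocorticoid-responsive genes held 1 call between them over 9 libraries. Of 14 immediate early genes 1 (7.14%, against 0.125% of all genes), Egr2, was called higher (30.1, 24.5 and 19.4 CPM against 11.6 to 15.3 CPM, log2 ratio 0.82, adjusted p = 0.0463), 7 were higher at an unadjusted p under 0.05, against 6.37% of all genes, and the median was 0.32. List medians of 0.47, 0.41 and 0.15 in the Aldh1l1 mice overlapped with -0.09 to 0.16 in the Cx3cr1 mice. Egr1, of the same family of activity-induced factors, was at 334, 449 and 407 CPM against 308 to 330 CPM, all above the Cx3cr1 line, with a log2 ratio of 0.31 (adjusted p = 0.172). Of 9 tested nuclear long non-coding RNAs 0 were called by edgeR and 2 by DESeq2, 5 were higher at an unadjusted p under 0.05, against 6.37% of all genes, and the median was 0.34. Meg3 was at 4960, 5880 and 5270 CPM against 3940 to 4610 CPM (log2 ratio 0.34, adjusted p = 0.118), also without overlap. Of 12 glucocorticoid-responsive genes 0 were called over 9 libraries by edgeR and 3 by DESeq2 (1.88% of all genes), 4 were higher at an unadjusted p under 0.05 (6.37% of all genes), and 7 were called higher over 7 libraries (6.18% of all genes). Their list median was -0.16 in mouse 290, below the range of -0.15 to 0.09 in the Cx3cr1 line, and 0.39 and 0.46 in mice 293 and 294, above it. Sgk1, a kinase of that response, was at 123, 199 and 211 CPM against 85.8 to 151 CPM (log2 ratio 0.71, adjusted p = 0.171), with mouse 290 the lowest of its line.

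Most of the 34 called genes went the opposite way in bound RNA. Of the 17 that were lower in the unbound RNA of the Aldh1l1 line, 15 were higher in its bound RNA, 1 was lower there too (Abca8a) and 1 was not called (Slc6a13). Of the 17 that were higher, 11 were lower in bound RNA, 2 were higher there too (Wdfy1 and Ocel1), 3 were not called (Col24a1, Nrbp2 and Zfp57) and 1 was not tested (Il12rb1). In bound RNA, 30.6% of all genes were higher and 33.1% lower. For all 34 the libraries of the lines did not overlap, which adds no support, since they were picked on these same libraries. Among all genes, 3.56% were higher and 4.28% lower without overlap.

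Those that were lower, beyond the astrocyte and choroid plexus genes above, ranged in log2 ratio from -1.51 to -0.46. Clec3b, which encodes tetranectin, was at 6.56, 4.03 and 3.68 CPM against 10.6 to 16.0 CPM, or 35.2% of the Cx3cr1 level (95% interval of the log2 ratio from -1.98 to -1.04, adjusted p = 0.0319). Abca8a, a lipid transporter, was at 5.37, 7.06 and 5.50 CPM against 11.3 to 19.2 CPM (log2 ratio -1.36, adjusted p = 0.0394). Il33, the alarmin that is stored in the nuclei of oligodendrocytes and astrocytes, was at 46.4, 50.1 and 48.9 CPM against 66.1 to 84.8 CPM (log2 ratio -0.72, adjusted p = 0.0172). In each of these genes even the highest Aldh1l1 library was below the lowest Cx3cr1 library. Myoc, the secreted protein myocilin, had a log2 ratio of -0.85 (adjusted p = 0.0172) and Enpp2, the lysophospholipase autotaxin that choroid plexus and oligodendrocytes express, one of -0.65 (adjusted p = 0.0394). The histone gene Hist1h2be (log2 ratio -1.17) was at only 1.67, 1.88 and 2.34 CPM against 4.02 to 5.09 CPM. Pcdhgb6 of the clustered protocadherins, which share their last exons with neighbouring family members, had a log2 ratio of -0.58. Hadhb, a subunit of the mitochondrial enzyme of fatty acid oxidation, was also called (-0.46, adjusted p = 0.0394) and is named after its values were seen.

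Those that were higher ranged from 0.40 to 1.61. Ocel1, of unclear function, was at 7.52, 7.78 and 7.51 CPM against 2.53 to 3.67 CPM, or 2.69-fold (95% interval of the log2 ratio from 1.09 to 1.76, adjusted p = 0.0125), and its log2 ratio in bound RNA was 1.35. Il12rb1, a subunit of the interleukin-12 receptor, was at 2.51, 3.19 and 3.92 CPM against 0.534 to 1.41 CPM (log2 ratio 1.61, 95% interval from 1.01 to 2.22, adjusted p = 0.0474) and rests on 21 to 82 counts a library against 12 to 35. Col24a1, a fibrillar collagen, was at 5.97, 7.54 and 5.35 CPM against 2.13 to 3.50 CPM (log2 ratio 1.32, adjusted p = 0.0358). The 3 genes thus separated at low levels. Zfp57, which keeps methylation at imprinted loci, was at 14, 14.3 and 15.8 CPM against 6.68 to 8.69 CPM (log2 ratio 0.94, adjusted p = 0.0172). Wdfy1, an endosomal protein, was at 39.4, 54.9 and 53.8 CPM against 26.1 to 29.7 CPM (log2 ratio 0.84, adjusted p = 0.0172). It is on a hand-written list of genes known to differ between mouse substrains. Of 8 tested on that list, 1 (12.5%) was called higher and 0 lower, against 0.125% of all genes in each direction. The part of genetic background was not tested. Among genes at higher levels were Rgs4, a regulator of G protein signalling in neurons (369, 373 and 354 CPM against 252 to 293 CPM, log2 ratio 0.44, adjusted p = 0.0463) and Slc30a3, the transporter that loads zinc into synaptic vesicles (97.6, 103 and 87.7 CPM against 60.8 to 75.3 CPM, log2 ratio 0.52, adjusted p = 0.0438). Fcho1, Neurl1b, Nrbp2 and Pak6 had log2 ratios of 0.47 to 0.53, and Wsb1 and Shroom2, named after their values were seen, of 0.43 and 0.40.

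**Figure D5:**
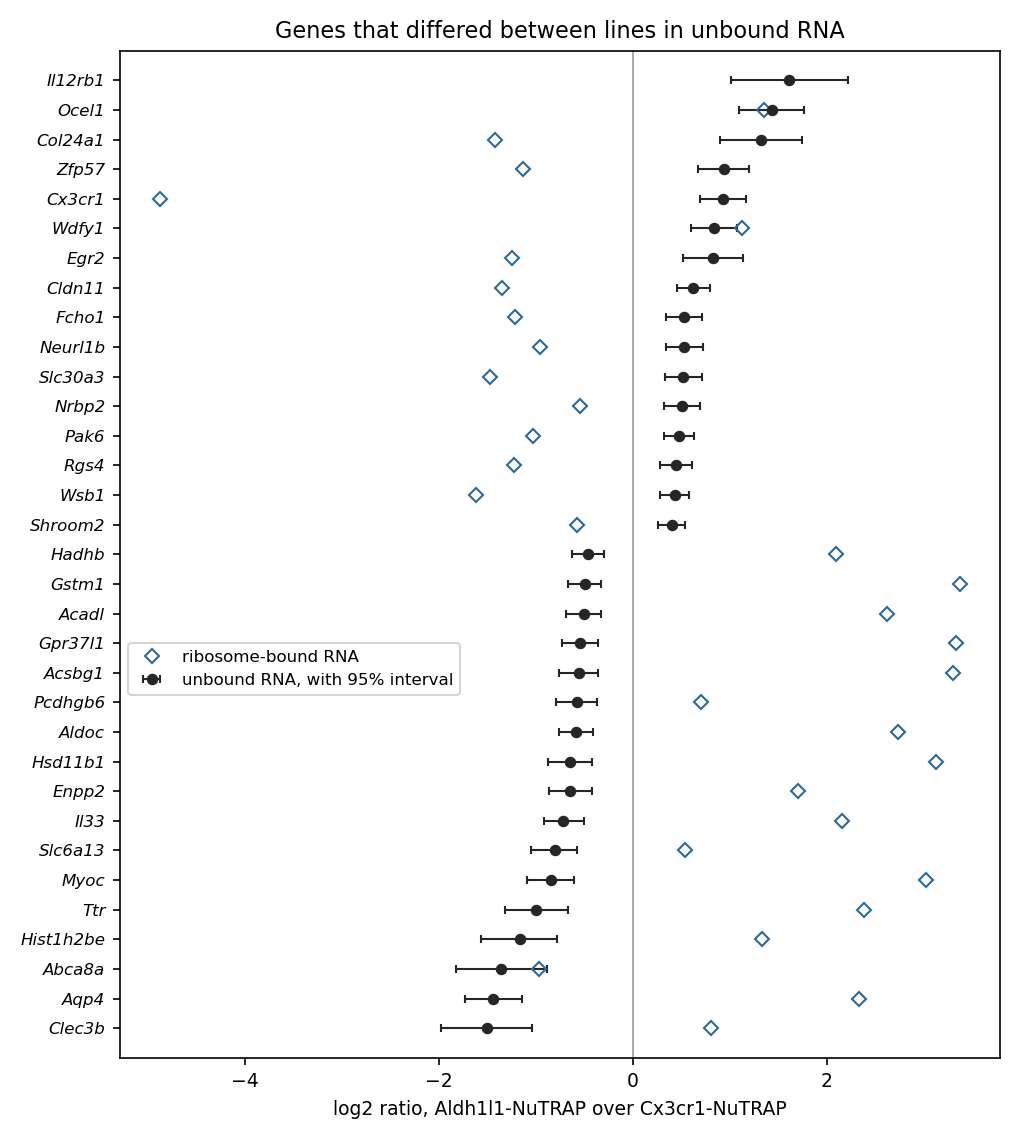
Log2 ratio of the Aldh1l1-NuTRAP to the Cx3cr1-NuTRAP line for genes called in unbound RNA (black, with the 95% interval) and the same ratio in ribosome-bound RNA of the same mice (blue diamonds). For most of them the diamond lies on the other side of 0, and Il12rb1 has none because it was not tested in bound RNA.

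3 of the called genes lie close together on chromosome 8 of the mm10 build, Il12rb1 (70808449 to 70821423), Ocel1 (71371298 to 71373689) and Fcho1 (71708387 to 71725681), and all 3 were higher in the Aldh1l1 line. They were picked out after their values were seen. From 1 Mb before the first to 1 Mb after the last, 88 genes were tested, of which 3 were called higher and 0 lower, and 16 (18.2%) were higher and 4 (4.55%) lower at an unadjusted p under 0.05, against 6.37% and 7.05% of all genes. Since the window was drawn around called genes, its counts are a description. The other 2 windows drawn in this way each held 1 gene called higher and 1 lower, Wsb1 and Aldoc among 51 genes on chromosome 11 and Slc30a3 and Hadhb among 44 on chromosome 5. Of those 51 genes 7.84% were higher and 9.8% lower at an unadjusted p under 0.05, and of those 44 genes 6.82% were in each direction. Within 5 Mb of Aldh1l1 77 genes were tested and within 5 Mb of Gt(ROSA)26Sor, the site of the NuTRAP reporter, 67, with 0 called in either window and 10 (13%) and 12 (17.9%) at an unadjusted p under 0.05 in either direction, where all genes had 6.37% higher and 7.05% lower. Within 5 Mb of Cx3cr1 70 genes were tested and Clec3b alone was called, lower in the Aldh1l1 line, with 12 (17.1%) at an unadjusted p under 0.05. The genes of the construct's fusion proteins were not called either, since Rpl10a was at 166, 126 and 114 CPM against 89.7 to 161 CPM (log2 ratio 0.32, adjusted p = 0.497) and Rangap1 at 566, 376 and 333 CPM against 293 to 362 CPM (log2 ratio 0.47, adjusted p = 0.201).

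Sex-linked transcripts varied within both lines. Xist, the RNA of the inactive X chromosome, was at 103 CPM in mouse 290, at 89.8 to 122 CPM in mice 155, 192 and 194, and at 3.63 CPM or less in the other 5. Ddx3y, of the Y chromosome, was at 67.2 to 75.8 CPM in those 5 and at 5.13 CPM or less in the former 4. Mouse 210 stood out in the pituitary hormone genes Pomc (430 CPM) and Prl (337 CPM), against at most 13.2 and 8.28 CPM in the other 8 libraries.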

How the data were processed

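RNA of brain homogenates was collected as input, ribosome-bound (positive) and unbound (negative) fractions, and strand-specific poly(A) libraries were sequenced with paired ends. According to the methods, the authors aligned reads to mm10 in Strand NGS, and per the file headers genes were those of RefSeq. The deposited raw columns hold expected counts (81.4% of nonzero values were not whole, at a tolerance of 0.001), and these were rounded to whole numbers. The deposited log2 columns, normalized by the authors with DESeq, were not used. The table has 36172 gene rows, of which 14057 were 0 in all 29 libraries and 454 share a symbol with another row, and 0 value columns belonged to no sample. Groups were taken from the labels.

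A gene was kept where at least 1 of the groups compared had over 20 counts in all of its libraries. Genes were tested with edgeR 4.0.16 in R 4.3.3 (TMM scaling, robust quasi-likelihood test, two-sided, Benjamini-Hochberg adjustment over all genes tested, threshold 0.05). The p-values set the difference between groups against the spread between libraries, each of 1 mouse. Those of unbound RNA against input without the block do not use the pairing by mouse. CPM are TMM-scaled and log2 values use a prior count of 2. DESeq2 1.42.0, limma 3.58.1 (voom), other scalings and filters, thinning to the smallest library and leaving out single mice were alternatives. The fits were tested on simulated data. Depth was 8782235 to 25137834 counts in unbound RNA, which sets the precision of low genes.

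In the Cx3cr1 line the unbound and input libraries carry the same mouse numbers and come from the same mice. Deviations from the group means correlated by over 0.1 in 5 of the 6 pairs, and a fit with the mouse as a replicate block is given. The members and gene lists were chosen with earlier results of these data known. Cell type lists came from the study's supplementary tables and the others were written by hand. Genes were named by rule. These are the markers that the study names, Rpl10a and Rangap1, members of the hand-written lists, the 15 largest called changes in each direction with libraries that did not overlap and over 20 counts throughout the higher group, the 6 largest called members of the sorted-cell astrocyte and microglia lists, and genes called within 5 Mb of the driver and reporter loci. Other genes are said to be named after their values were seen, and 1 called gene is counted but not reported here by name.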

Additional observations from a re-analysis of the deposited data

Results flagged for a closer look

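Of 127 gene levels and list medians examined for a mouse far from the other 5 of the Cx3cr1 line in unbound RNA, 28 had one, and chance alone marks about 1 in 20 groups in this way. Mouse 155 was the distant library for most of them. It was the highest for C1qa (67.4 CPM), Fabp7 (110 CPM), Syt4 (316 CPM), Mog (110 CPM), Rpl10a (161 CPM), Rangap1 (362 CPM), Gt(ROSA)26Sor (103 CPM), Apoe (2440 CPM) and Phgdh (127 CPM). It was the lowest for Kcnj10 (256 CPM), Acsbg1 (183 CPM), Gpr37l1 (234 CPM) and Gja1 (209 CPM). Among list medians relative to the mean of the line it was high for astrocyte transcription factors (0.15), heat shock and unfolded protein genes (0.33), cytosolic ribosomal proteins (0.62), the respiratory chain (0.49) and construct and Cre driver genes (0.23), and low for pericytes and smooth muscle (-0.37).

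Mouse 194 was the distant library for Col24a1 (3.5 CPM, highest), Il33 (66.1 CPM, lowest), Sparcl1 (2030 CPM, lowest), the list of hindbrain and spinal cord (-0.70) and that of striatum (0.11). The others were mouse 210 for Ocel1 (3.67 CPM, highest), mouse 192 for Pcdhgb6 (36.2 CPM, lowest), mouse 209 for P2ry12 (18.8 CPM, lowest) and mouse 277 for Tmem119 (17.9 CPM, lowest). For Ocel1, Col24a1, Il33, Pcdhgb6, Acsbg1 and Gpr37l1, which were called between the lines, the distant mouse was on the side of the Aldh1l1 line and still outside its range. The cause was not tested in any of these cases.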

How the results depend on the processing

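Against 17 genes higher and 17 lower in the unbound RNA of the Aldh1l1 line, DESeq2 gave 256 and 261, no filter on low counts 6 and 8, and leaving out both mice 155 and 290, which was chosen after seeing the data, 866 and 757. Library totals in place of TMM gave 8 higher and 20 lower, and 1 fit over all 29 libraries 26 lower. Leaving out 1 mouse at a time gave 0 to 61 higher and 0 to 72 lower. Of the 34 calls, 7 were kept under every alternative that tested them and left out no single mouse (Ocel1, among these, was not tested with at least 100 counts), and 0 were kept when the fits that leave out 1 mouse are included. Aqp4 lost its call without mouse 293 alone (adjusted p = 0.103). No paired analysis was possible for this comparison because the lines share no mouse.

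For unbound RNA against input in the Cx3cr1 line (194 higher and 646 lower), the replicate block gave 2431 and 2684, DESeq2 766 and 1290, and no filter 53 and 228. Leaving out 1 mouse at a time gave 0 to 1774 higher and 0 to 2041 lower. In bound RNA (4188 higher and 4530 lower), leaving out 1 mouse at a time gave 3936 to 4468 higher and 3886 to 4538 lower, and library totals in place of TMM 2875 and 6312. The mean of the sorted astrocyte list stayed between -0.22 and -0.18 when any mouse was left out, and that of the sorted microglia list between -0.02 and 0.12. No named result changed direction while called. Apart from the settings that leave out samples or genes, the cause was not tested. With 3 Aldh1l1 mice, and 8782235 counts in mouse 290, precision was lowest for genes with few counts.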
